A study of Mus musculus and Rattus norvegicus with 35 samples.

Results

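The 33 genes described here are used to recognise blood vessels in RNA profiles. Most mark endothelial cells, which line the vessels, 7 mark the smooth muscle cells and pericytes wrapped around them, and 3 are scavenger receptors that some endothelium shares with macrophages. They are listed by symbol. All 33 had a row among 24601 mouse genes and 30 had one among 22409 rat genes. Ly6c1, Ly6a and Acta2 were not analysed in rat.

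The study profiled linear and circular RNA in C57BL/6 mice and Sprague Dawley rats. In mouse, brain, heart, liver, lung and testis had 3 rRNA-depleted libraries each, 1 from animals of 14 weeks (replicate 1) and 2 from 20 weeks (replicates 2 and 3), and brain of 14 weeks had a further poly(A)-selected library. Whole mouse hippocampus was sampled at embryonic day 18 (E18) and postnatal days 1, 10 and 30 (P1, P10, P30) with 2 libraries per age. At 4 weeks, 1 mouse hippocampal homogenate was set against 1 synaptosome preparation, the fraction of pinched-off nerve endings, and 1 library of the dissected CA1 neuropil, the layer of dendrites and axons, against 1 of the CA1 somata layer, in mouse and again in rat. Rat hippocampal neurons kept in culture for 28 days received water (2 libraries) or 40 μM bicuculline, a blocker of GABA-A receptors, for 12 h (2 libraries). The labels name no transgene or deletion in any group. They also do not say which libraries came from separate animals or cultures, so p-values here measure the spread between libraries, which may be technical.

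Endothelial cells respond to vascular endothelial growth factor (VEGF) through receptor tyrosine kinases and to angiopoietins through the receptor Tek, and they seal their borders with cadherin and claudin junctions. In brain they form the blood-brain barrier, with tight junctions and efflux pumps, while liver sinusoids are leaky and lung is built around a dense capillary bed. Mural cells contract or steady the vessel and are recruited by platelet-derived growth factor acting on Pdgfrb.

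ETS-family transcription factors, to which the members Ets1 and Erg belong, bind DNA around a GGAA core, and many endothelial promoters hold such sites. The 250 bases before the start of Tie1, Flt1 and Cldn5 are printed here because all of these genes were highest in lung and yet differ in this motif. They come from RefSeq (GRCm38.p6, chromosome 4 minus strand 118489850-118490099, chromosome 5 minus strand 147726012-147726261 and chromosome 16 plus strand 18776597-18776846) and are written 5′ to 3′ along the gene. Capitals mark each GGAAG or, for the opposite strand, CTTCC.
Tie1: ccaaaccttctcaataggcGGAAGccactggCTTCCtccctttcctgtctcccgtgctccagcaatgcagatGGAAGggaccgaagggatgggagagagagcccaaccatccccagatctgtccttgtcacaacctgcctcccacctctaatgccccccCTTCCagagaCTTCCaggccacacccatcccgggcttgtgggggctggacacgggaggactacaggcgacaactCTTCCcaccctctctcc
Flt1: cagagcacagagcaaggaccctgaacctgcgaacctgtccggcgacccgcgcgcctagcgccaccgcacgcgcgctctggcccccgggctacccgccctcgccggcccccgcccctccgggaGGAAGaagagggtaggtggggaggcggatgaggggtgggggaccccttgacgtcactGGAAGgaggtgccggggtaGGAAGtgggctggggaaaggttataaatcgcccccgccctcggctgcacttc
Cldn5: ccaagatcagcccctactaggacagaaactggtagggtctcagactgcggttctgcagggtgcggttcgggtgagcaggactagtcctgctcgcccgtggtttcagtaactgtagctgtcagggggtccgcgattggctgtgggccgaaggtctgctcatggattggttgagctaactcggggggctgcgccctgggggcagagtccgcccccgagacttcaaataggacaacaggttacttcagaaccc
Tie1 held 6 copies, Flt1 held 3 and Cldn5 held 0. RefSeq entries were matched for 19 of the 33 genes, giving 24 promoters, of which 19 held at least 1 copy, against 64.1% of all 32851 promoters of that length. At least 6 copies were present in 0.344% of all promoters. A match is a description of letters, and no match says only that they are not in this window.

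Gene values are in TPM, transcript abundance scaled for gene length and library size, which keep no record of depth. Between 11728 and 15605 mouse genes and between 13007 and 13971 rat genes reached 1 TPM per library. The labelled tissues carried their own markers: 4 alveolar epithelial markers summed to 71934 to 83312 TPM in lung and to at most 25.8 TPM in any other tissue, 4 heart muscle markers to 27775 to 38563 TPM in heart, and 7 neuronal markers to 3823 to 4069 TPM in brain. Choroid plexus, the vascular tissue of the brain ventricles, differed between libraries of the same group. Its 5 markers summed to 168 and 38.3 TPM in replicates 1 and 2 at E18, and to 282 and 23.8 at P1. They summed to 21.3 and 3527 TPM at P10, to 1335 and 349.7 at P30, and to between 669.6 and 2580 in brain. Blood markers (haemoglobin genes and Alas2) ran from 7716 to 25449 TPM in lung and from 4018 to 15188 in heart, against 668 to 1590 in brain, 741 to 756 in liver and 54.6 to 233 in testis.

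The first comparison asked how vessel genes are distributed over the body's tissues. Most members were higher in lung: 30 of the 33 were higher in lung than the mean of the other 4 tissues and 1, Rgs5, was lower (limma on log2(TPM + 1), Benjamini-Hochberg adjustment over 18966 genes, threshold 0.05), where 47.5% of all tested genes were higher and 25.4% lower. The median difference was 3.56 on the log2 scale for the members and 0.42 for all genes. Heart followed, with 27 higher and only Mfsd2a lower (background 19.7% and 45.1%). Brain had 6 higher and 19 lower (45.4% and 28%), liver 4 higher and 25 lower (10.9% and 72.6%), and testis 0 higher (0 also at an unadjusted p under 0.05 in limma) and 27 lower (32.9% and 47.8%). The 5 contrasts share their libraries. In bulk tissue, fewer vessel cells and less RNA per cell cannot be told apart.

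By mean TPM, 28 genes were highest in lung, 2 in heart, 2 in liver and 1 in brain, and for 25 of the lung genes every lung library exceeded every library of the next tissue. Testis had the lowest mean for 20 genes, liver for 9, brain for 3 and heart for 1. The shares of all genes with such an order are not given here, so these counts only describe the members. The heat map of the 15 libraries shows the bright lung block, with a higher mean in another tissue in the rows of Abcg2, Nos3, Mfsd2a, Rgs5 and Anpep. Nos3, for example, averaged 14.7 TPM in heart and 10.8 in lung.

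**Figure D1:**
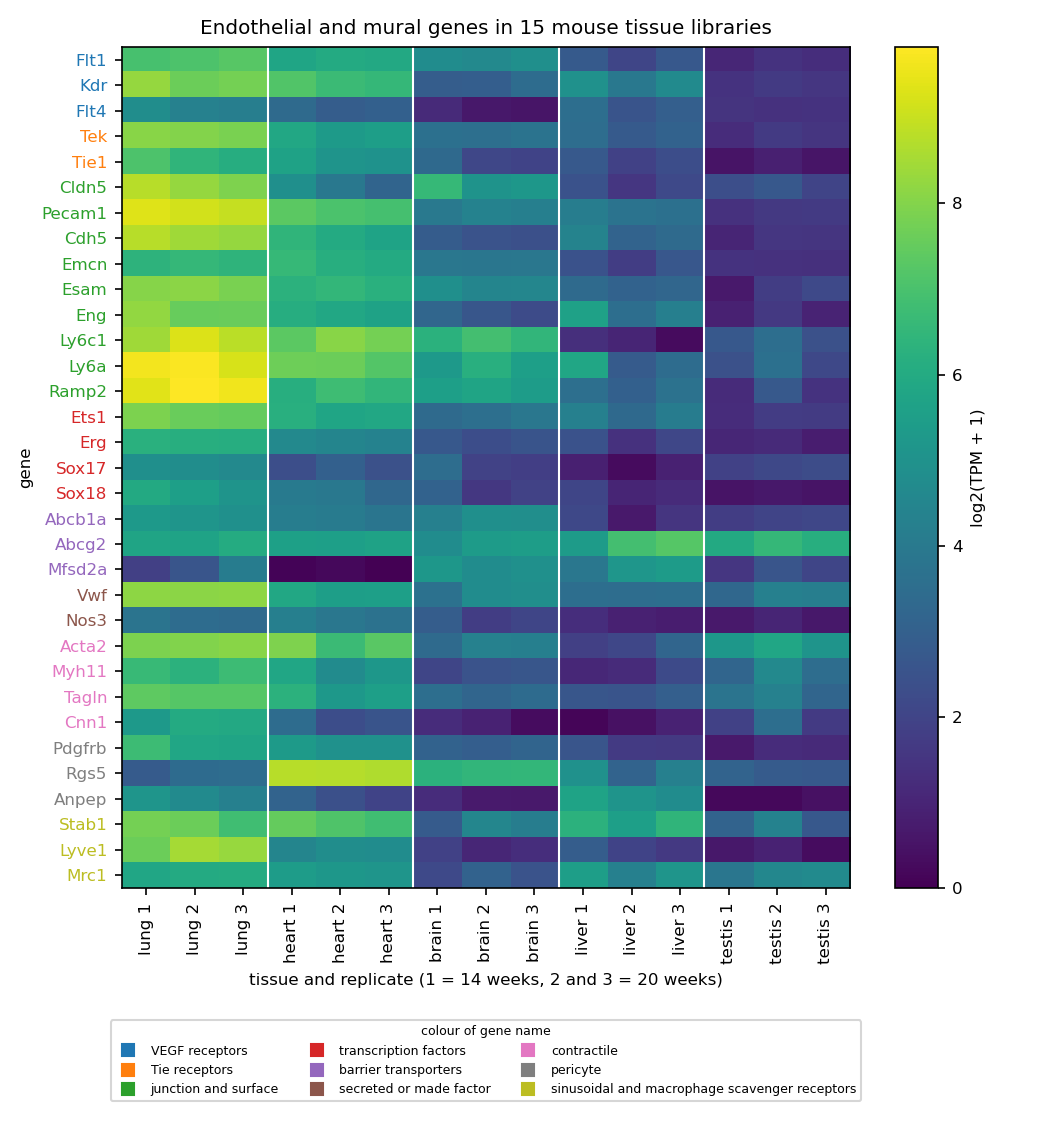
Level of each of the 33 genes as log2(TPM + 1) (colour) in each of 15 mouse tissue libraries (columns, 3 per tissue; 1 cell per library, no averaging). Lung holds the highest mean for 28 genes, while Rgs5 and Nos3 have theirs in heart, Mfsd2a in brain, and Abcg2 and Anpep in liver.

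The VEGF receptors were ordered alike at the top. Flt1, a VEGF receptor that also acts as a decoy, stood at 126, 133 and 154 TPM in the 3 lung libraries, 54.2, 63.7 and 60.2 in heart, 26.4, 23.7 and 28.5 in brain, 5.90, 3.14 and 5.45 in liver and 1.06, 1.69 and 1.47 in testis. No 2 tissues overlapped, and the lung difference was 3.50 ± 0.15 (± is the standard error of a log2 difference throughout; adjusted p = 4e-10). Kdr, the main signalling receptor for VEGF-A, read 307, 194 and 218 TPM in lung, 144, 103 and 93.4 in heart, 30.1, 14.5 and 25.0 in liver, 6.37, 6.60 and 9.99 in brain and 1.69, 2.15 and 1.95 in testis, again without overlap. Thus liver was above brain for Kdr and below it for Flt1. Flt4, the receptor for VEGF-C that is known from lymphatic vessels, was lowest in brain at 1.24, 0.546 and 0.488 TPM against 27.3, 19.2 and 17.5 in lung. In brain Flt1 was called higher (0.57 ± 0.15, adjusted p = 0.0047) while Kdr (-2.11 ± 0.21) and Flt4 (-2.21 ± 0.21) were lower. With libraries scaled to equal medians the brain difference of Flt1 turned to -0.04, and the liver difference of Kdr from -0.30 to 0.59, called higher there (adjusted p = 0.010).

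Both Tie receptors, which bind or modulate angiopoietin signals, were higher in lung and heart and lower in brain, liver and testis. In liver 72.6% of all genes were lower. Tek read 269.7, 258 and 229.9 TPM in lung, 58.1, 39.9 and 44.4 in heart, 11.4, 10.9 and 12.5 in brain, 10.4, 5.86 and 7.46 in liver and 1.36, 2.21 and 1.83 in testis, with no overlap between tissues. Tie1 read 135, 85.5 and 68.0 TPM in lung and 0.416, 0.797 and 0.462 in testis, a lung difference of 3.87 ± 0.29 (adjusted p = 5.1e-08). With equal medians the liver call of Tie1 was lost (adjusted p = 0.056).

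All 9 junction and surface genes were higher in lung. Ramp2, a receptor partner for adrenomedullin, had the largest lung difference of them at 5.30 ± 0.26 (adjusted p = 1.1e-09), with 676, 908 and 793 TPM in lung against 70.4, 109 and 87.5 in heart. Cdh5, the VE-cadherin of endothelial junctions, read 439, 341 and 305 TPM in lung, 86.0, 62.5 and 50.7 in heart, 20.1, 7.66 and 9.53 in liver, 6.26, 4.73 and 4.33 in brain and 1.03, 1.94 and 1.89 in testis. Pecam1, an adhesion molecule at the same junctions, had a mean of 577 TPM in lung, 4.16 times that of heart. Emcn, a sialomucin of capillary and venous endothelium, was the exception to lung's lead: its lung values of 81.4, 93.2 and 82.4 TPM overlapped the heart values of 94.6, 70.7 and 62.8.

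Cldn5 and Ly6c1 were higher in brain as well as in lung. Cldn5, the claudin that dominates the tight junctions of brain endothelium, read 93.9, 32.1 and 35.5 TPM in brain, 442, 305 and 242 in lung, 29.1, 14.1 and 8.00 in heart, 4.10, 5.54 and 3.01 in testis and 4.60, 1.97 and 3.45 in liver. The 14-week brain library was the highest of the brain libraries, and the brain difference was 1.41 ± 0.36 (adjusted p = 0.0031), which became 0.80 (adjusted p = 0.057) with equal medians. Ly6c1, a GPI-anchored surface protein of capillary endothelium and of some leukocytes, read 341, 628 and 447 TPM in lung, 163, 273 and 218 in heart, 76.6, 118 and 87.3 in brain, 5.61, 10.8 and 4.48 in testis and 1.48, 1.04 and 0.226 in liver. Its liver difference of -5.63 ± 0.27 was the lowest of any gene described here in any tissue. Its relative Ly6a read 796, 881 and 599 TPM in lung and 55.4, 6.02 and 10.0 in liver, where replicate 1 stood above the other libraries. Esam, an endothelial adhesion molecule, and Eng, a co-receptor for TGF-beta ligands, had lung differences of 4.07 ± 0.23 and 4.24 ± 0.34. In testis all 9 genes of this kind were lower.

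The 4 transcription factors were all higher in lung and all lower in liver, where 47.5% of all genes were higher in lung and 72.6% lower in liver. Ets1 read 237, 190.5 and 181 TPM in lung, 71.8, 53.6 and 59.2 in heart, 18.4, 9.30 and 16.4 in liver, 9.58, 11.1 and 14.0 in brain and 1.40, 2.31 and 2.29 in testis; the liver difference of -0.78 ± 0.19 turned to 0.09 with equal medians. Erg, a regulator of endothelial identity, was at 75.3, 71.2 and 68.7 TPM in lung and 5.51, 4.04 and 4.85 in brain. Sox17, known from arterial endothelium, and Sox18, known from lymphatic and vascular development, had lung differences of 2.82 ± 0.29 and 3.56 ± 0.30.

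The barrier transporters followed no common tissue order. Abcb1a, the P-glycoprotein pump of the blood-brain barrier, read 38.9, 34.3 and 29.3 TPM in lung, 18.4, 28.4 and 28.0 in brain and 3.38, 0.585 and 1.90 in liver, and was higher in brain by 1.53 ± 0.24 (adjusted p = 5.6e-05). Abcg2, a pump of barriers and of bile canaliculi, was highest by mean in liver (41.5, 119 and 149 TPM), overlapping testis (61.3, 91.5 and 70.4); without liver replicate 2 or 3 its liver call was lost (adjusted p = 0.12 and 0.19). Mfsd2a, a lysophospholipid transporter of brain endothelium that hepatocytes also make, read 35.9, 26.2 and 29.6 TPM in brain and 14.1, 35.3 and 40.5 in liver. In heart Mfsd2a was listed at 0.0653, 0.172 and 0 TPM, a heart difference of -3.57 ± 0.40 (adjusted p = 2.7e-06).

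Vwf, the clotting factor that endothelium stores, read 284, 278 and 282 TPM in lung, 58.6, 44.8 and 46.1 in heart, 11.6, 26.5 and 27.8 in brain, 8.72, 18.7 and 17.5 in testis and 10.7, 10.4 and 10.8 in liver. Nos3, the endothelial nitric oxide synthase, was highest by mean in heart, at 18.0, 14.0 and 12.1 TPM, and overlapped lung at 12.6, 10.1 and 9.54.

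The 4 contractile genes of smooth muscle were higher in lung and lower in brain and liver. Of all genes, 47.5% were higher in lung, 28% lower in brain and 72.6% lower in liver. Acta2, smooth muscle actin, read 235, 249 and 268 TPM in lung, 245, 102 and 156 in heart, 35.7, 55.9 and 32.8 in testis, 9.42, 18.9 and 18.1 in brain and 2.67, 3.28 and 8.22 in liver, so that lung and heart overlapped and testis stood above brain. Myh11, the smooth muscle myosin, read 96.2, 79.2 and 106 TPM in lung, and Tagln, an actin-binding protein, read 165, 151 and 150.1. Cnn1, calponin, was at 38.1, 63.2 and 59.3 TPM in lung against 10.2, 3.95 and 4.84 in heart. In testis only Tagln was called lower (-1.01 ± 0.23), while Acta2 (-0.05 ± 0.30), Myh11 (-0.16 ± 0.31) and Cnn1 (-0.09 ± 0.37) did not pass and turned positive with equal medians.

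The pericyte genes differed from one another. Rgs5, a regulator of G protein signalling abundant in brain and heart pericytes, read 437, 423 and 400.2 TPM in heart, 78.6, 86.5 and 89.5 in brain, 30.8, 7.75 and 18.3 in liver, 6.01, 9.70 and 10.5 in lung and 7.74, 5.98 and 5.67 in testis. It was the only member lower in lung (-2.29 ± 0.27, adjusted p = 4.6e-06), and its heart difference was 4.54 ± 0.27 (adjusted p = 7.6e-09). Pdgfrb, the receptor through which pericytes are recruited, read 105, 55.6 and 53.0 TPM in lung, 40.3, 30.0 and 30.1 in heart, 7.60, 6.69 and 7.87 in brain, 4.98, 2.2 and 2.08 in liver and 0.573, 1.38 and 1.25 in testis. Anpep, an aminopeptidase that hepatocytes also carry, read 50.5, 33.4 and 26.2 TPM in liver, 33.6, 24.7 and 18.6 in lung and 1.40, 0.636 and 0.591 in brain.

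All 3 scavenger receptors were higher in lung and in heart and lower in brain. Lyve1, a hyaluronan receptor of lymphatic vessels and tissue macrophages, read 197, 366 and 315 TPM in lung, 21.2, 27.1 and 26.7 in heart, 6.39, 2.93 and 2.10 in liver, 2.77, 1.06 and 1.43 in brain and 0.538, 0.910 and 0.264 in testis. Its mean in lung was 11.7 times that of heart. Stab1, a clearance receptor of sinusoids and macrophages, read 217, 195 and 111 TPM in lung, 180.3, 138 and 112 in heart and 78.9, 45.3 and 84.5 in liver, and lung and heart overlapped. Mrc1, the mannose receptor, read 55.9, 63.3 and 65.3 TPM in lung, 42.5, 35.8 and 34.0 in heart and 44.2, 18.3 and 33.5 in liver. The heart call of Mrc1 was lost without heart replicate 1 (adjusted p = 0.061), and with equal medians Stab1 (1.53) and Mrc1 (1.27) were called higher in liver. Beside these values, 3 perivascular macrophage markers that are not members (Cd163, F13a1, Pf4) summed to 56.9 to 149 TPM in lung, 118 to 170 in heart, 8.95 to 19.5 in liver and 9.06 to 10.3 in brain, and the part of such cells was not tested.

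Of 75 further genes of vessel biology, 73 were tested, and they shared the tissue order: 64 were higher and 5 lower in lung, 43 and 10 in heart, 21 and 31 in brain, 7 and 56 in liver, and 3 and 64 in testis. Of all genes, 47.5% were higher and 25.4% lower in lung, 19.7% and 45.1% in heart, 45.4% and 28% in brain, 10.9% and 72.6% in liver, and 32.9% and 47.8% in testis. The liver counts are thus near the shares of all genes. Thbd, the thrombin receptor thrombomodulin (5.96 ± 0.15), Cd93 (5.46 ± 0.18) and Pdpn (4.91 ± 0.19), which alveolar epithelium also makes, had the smallest p for lung. In brain, Slco1c1, a thyroid hormone carrier of the blood-brain barrier (5.71 ± 0.16), Ndp, a ligand of the barrier-inducing Wnt pathway (3.16 ± 0.12), and Slc2a1, the barrier's glucose transporter (3.62 ± 0.21), were higher, while Gpihbp1, which holds lipoprotein lipase on capillaries (-4.36 ± 0.25), was lower. Ndp reached 1 TPM only in brain libraries, and outside brain Slco1c1 reached it only in lung replicate 2 (1.19 TPM). Both were thus tested only because of brain, which limits what their differences show. In liver Cd34, a sialomucin missing from most sinusoids, was lower (-4.73 ± 0.15).

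Leaving out heart replicate 1 or liver replicate 1 gave 2 lower calls in heart, and leaving out liver replicate 3 gave 2 higher calls in liver. With the 20-week libraries alone the member calls were 30 higher and 1 lower in lung, 27 and 3 in heart, 6 and 23 in brain, 4 and 25 in liver, and 1 and 27 in testis. Scaling to equal medians moved the median of all genes from 0.42 to -0.20 in lung, from 0.34 to -0.23 in brain, from -0.38 to -0.31 in heart, from -1.02 to -0.50 in liver and from -0.41 to -0.04 in testis, and gave 30 and 2 member calls in lung, 27 and 1 in heart, 4 and 24 in brain, 8 and 21 in liver, and 1 and 26 in testis.

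The second comparison asked which vessel transcripts stay with nerve endings when hippocampus is fractionated. Most endothelial members were lower in the synaptosome library, and none of the measured mural members was past 2-fold. Of 29 members at 1 TPM or more in either library, 16 were at least 2-fold lower in the synaptosome library on TPM + 1 and 1, Mrc1, was higher, where 14% of all 14854 genes were lower and 5.83% higher. With a pseudocount of 5 TPM 8 were lower and 0 higher, and with equal medians 3 were higher. The median log2 ratio was -1.08 for the members and -0.29 for all genes. Each side is 1 library, so no test was made and no replicate error is known.

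Ly6c1 was at 3.07 TPM in the synaptosome library and 69.7 in the homogenate, a log2 ratio of -4.12 that is the lowest of the set. Ly6a read 3.35 against 51.3 TPM and Cldn5 6.29 against 53.8. Of the 9 junction and surface genes, 7 were past 2-fold, Eng (-0.69) and Ramp2 (-0.84) being the others. Both Tie receptors and both measured VEGF receptors were past it too, from -1.02 for Kdr to -1.69 for Flt1, as were Erg, Sox17, Sox18, Abcb1a and Nos3. Tie1, Erg, Sox17, Sox18 and Nos3 were under 1 TPM in the synaptosome library and between 2.74 and 5.36 in the homogenate. They were thus measured only through the homogenate, where they were high, which limits what their ratios show.

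The measured mural members stood apart from these. Rgs5 read 136 TPM in the synaptosome library and 76.7 in the homogenate, Pdgfrb 9.35 and 8.51, Myh11 4.57 and 3.60, Tagln 7.16 and 9.39, and Acta2 13.4 and 18.3. None of these 5 was past 2-fold in either direction, and with 1 library a side the difference between the 2 kinds of gene was not tested. Genes of the wider vessel list that also mark mural cells were mixed. Kcnj8 was past 2-fold lower (-1.61) and Cspg4 past it higher (1.21). At 0.658 TPM against 4.04, Kcnj8 was measured only through the homogenate. Abcc9 (-0.52), Cald1 (-0.53), Tpm2 (-0.68), Smtn (-0.32), Lmod1 (0.23), Notch3 (0.70) and Des (0.70) were not past it. Of the scavenger receptors, Mrc1 read 6.79 against 2.80 TPM and Stab1 31.4 against 16.7. Vwf (0.25) and Mfsd2a (-0.06) also stayed near 0.

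Marker sums of other cells moved between the same libraries: blood from 382 TPM in the homogenate to 18.4 in the synaptosome library, microglia and macrophages from 233 to 851, astrocytes from 819 to 2682 and neurons from 5072 to 3616. Their part in the ratios was not tested. Of 67 measured genes of the wider vessel list, 8 were lower and 5 higher past 2-fold, close to the 14% and 5.83% of all genes. Slco1a4, an organic anion carrier of brain endothelium, had the lowest log2 ratio at -3.08, and Apln, the endothelial ligand apelin that other cells also make, led the higher ones at 1.78.

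The third comparison set the CA1 neuropil against the CA1 somata layer. Vessel genes were higher in neuropil in both species. In mouse 26 of 31 measured members were at least 2-fold higher in neuropil and none was lower, where 8.22% of 14948 genes were higher and 0.97% lower, with a member median of 1.47 against 0.00 for all genes. In rat 18 of 29 were past 2-fold, all higher, against 8.35% higher and 1.47% lower of 14164 genes, with a median of 1.17 against 0.09. All 27 members measured in both species were above 0 in both, and 16 were past 2-fold in both. The shares of all genes above 0 or past 2-fold in both species are not given here. Past 3-fold there were 8 in mouse and 2 in rat, and with a pseudocount of 5 TPM 8 in rat were past 2-fold. Each layer is again 1 library per species, so no test was made.

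Cldn5 read 165 TPM in mouse neuropil and 60.5 in mouse somata, and 210 and 89.4 in rat. Flt1 read 32.2 and 11.7 TPM in mouse and 46.1 and 19.1 in rat. Most endothelial genes sat in the same range of ratios, with mouse log2 ratios of 1.63 for Pecam1, 1.47 for Tek, 1.5 for Tie1, 1.57 for Erg and 1.48 for Abcb1a, and rat ratios of 1.14, 1.21, 1.18, 1.34 and 1.17. Ramp2 was the lowest in both species, at 0.36 in mouse and 0.18 in rat.

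Acta2, Myh11 and Tagln had wider gaps between layers than any endothelial member. Acta2 read 34.5 TPM in mouse neuropil and 3.93 in somata, 8.79 times as much. Myh11 read 10.8 and 1.77 TPM in mouse and 12.6 and 2.14 in rat, and Tagln 23.0 and 4.58 in mouse and 38.3 and 5.58 in rat. Among pericyte genes the ratios were nearer those of endothelium, at 1.47 in mouse and 1.28 in rat for Pdgfrb and 1.21 and 0.94 for Rgs5. Stab1, whose mouse ratio was second to that of Acta2, and Mrc1 were at 2.72 and 1.96 in mouse and 0.87 and 1.31 in rat. In mouse somata Mrc1 was at 0.990 TPM, so it was measured only through neuropil.

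Neuronal markers summed to 3828 TPM in mouse neuropil and 3909 in somata. Several other sums were higher in neuropil, among them astrocytes at 1974 against 729.7 and oligodendrocyte lineage at 3501 against 2088. Microglia and macrophages, at 671 against 291, and blood, at 1276 against 517, were higher there too. In rat neuropil neuronal markers were lower, at 2867 against 4199, and blood was higher, at 1909.7 against 1005. So were astrocytes, at 4019 against 1787, and oligodendrocyte lineage, at 7639 against 4169. Not every sum was higher in neuropil: choroid plexus markers were at 9.02 TPM in mouse neuropil and 11.4 in somata, and fibroblast and meninges markers at 119 and 139 in rat. Each went the other way in the other species, choroid plexus at 9.12 and 3.90 TPM in rat and fibroblast and meninges at 160 and 104 in mouse. Single genes weighed heavily: Kl read 5.76 and 10.1 TPM in mouse, and Dcn 51.1 and 120 in rat, where the other fibroblast and meninges markers were higher in neuropil. In the wider vessel list 32 of 68 measured genes were past 2-fold in mouse and 26 of 66 in rat, all of them higher in neuropil. Icam2, an endothelial adhesion molecule, had the highest mouse ratio at 2.43, and Nrp2, a VEGF co-receptor that neurons also use, the highest rat ratio at 2.49.

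**Figure D2:**
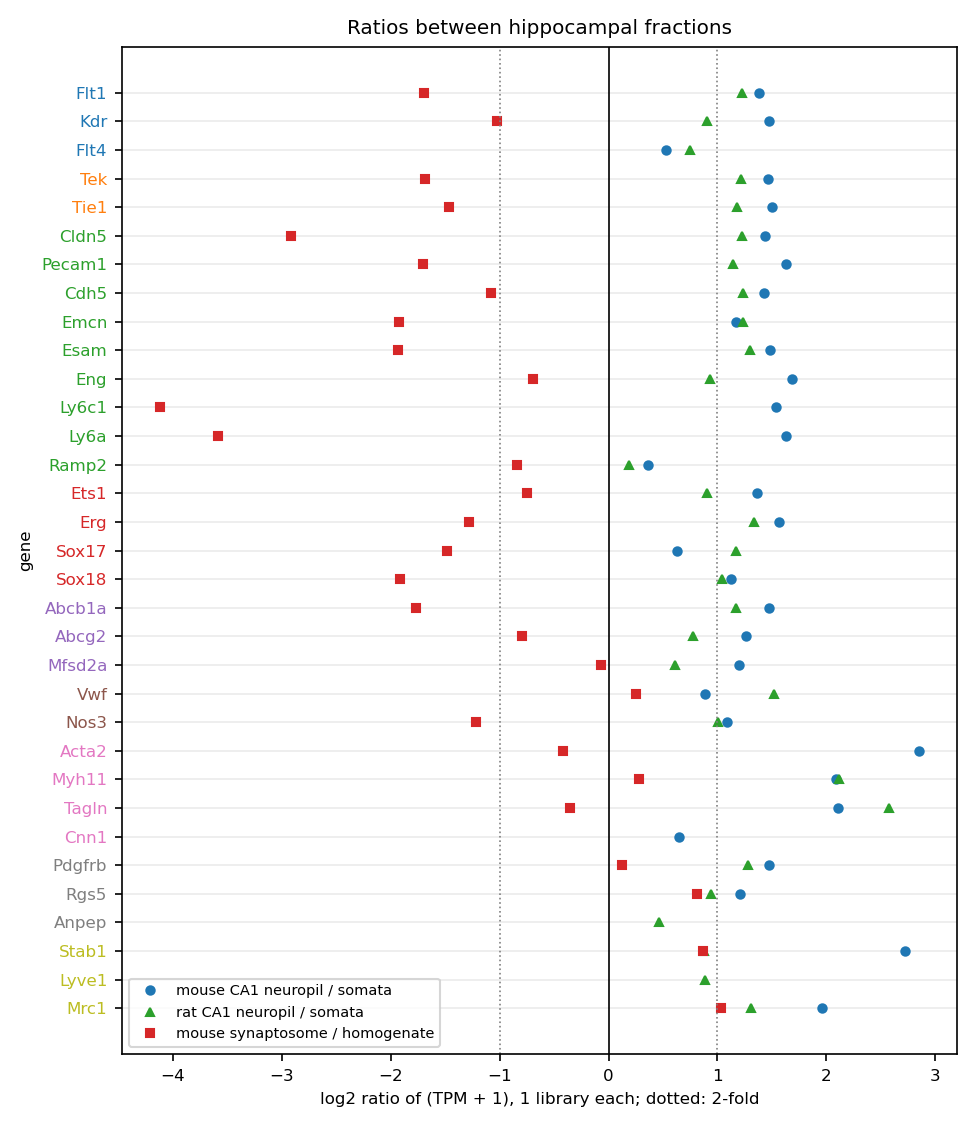
Log2 ratio of (TPM + 1) for each gene (rows) in mouse CA1 neuropil over somata (circles), rat CA1 neuropil over somata (triangles) and mouse synaptosome over homogenate (squares), 1 library on each side, with dotted lines at 2-fold. All CA1 points lie right of 0, up to 2.85 for Acta2, while synaptosome points run from -4.12 for Ly6c1 to 1.04 for Mrc1.

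The fourth comparison followed hippocampus from E18 to P30, when its vessels mature. Between E18 and P30, 7 of 31 tested members rose and 8 fell (15444 genes tested), where 29.5% of all genes were higher and 26.8% lower at P30, so the shares are near those of all genes. The members that rose were Ly6a, Ly6c1, Abcb1a and Flt1 of endothelium and Myh11, Acta2 and Tagln of smooth muscle. The members that fell were Kdr, Tie1, Cldn5, Cdh5, Ets1, Abcg2, Lyve1 and Mrc1. Cnn1 and Anpep did not reach 1 TPM in 2 libraries and were not tested. Myh11 entered the test only through the later ages, as given below.

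Ly6c1 read 17.5 and 10.1 TPM at E18, 20.3 and 19.8 at P1, 26.9 and 25.2 at P10 and 74.2 and 76.0 at P30. Ly6a read 5.03 and 2.86, 7.45 and 8.79, 8.23 and 6.16 and 35.6 and 39.1 TPM at the same ages. Both P30 libraries lay above all younger ones for each gene, and the P30 against E18 differences were 2.41 ± 0.22 (adjusted p = 1.6e-05) and 2.99 ± 0.24 (adjusted p = 7.1e-06). Reads shared between near-identical copies can be split between genes, and how the counting treated them is not stated in the labels, so values of Ly6c1, Ly6a and Abcb1a carry that uncertainty. Abcb1a read 6.06 and 7.44 TPM at E18 and 15.6 and 19.7 at P30 (difference 1.26 ± 0.21, adjusted p = 0.00072).

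The VEGF receptors went opposite ways. Flt1 read 10.2 and 9.49 TPM at E18, 5.51 and 6.32 at P1, 9.45 and 9.58 at P10 and 15.3 and 15.9 at P30, and the libraries of E18 and P10 overlapped. It rose from P1 to P10 (0.61 ± 0.16, adjusted p = 0.019) and from P10 to P30 (0.66 ± 0.16, adjusted p = 0.016). Kdr read 18.2 and 29.2, 15.2 and 16.4, 18.2 and 21.5 and 8.91 and 9.49 TPM, and fell from P10 to P30 by 1.03 and from E18 to P30 by 1.24 on the log2 scale (adjusted p = 0.008 and 0.0011). Flt4 stayed near 1 TPM at every age (-0.17 ± 0.18, adjusted p = 0.46).

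Ets1 read 23.3 and 26.5 TPM at E18, 22.4 and 22.7 at P10 and 12.4 and 10.2 at P30, a difference of -1.08 ± 0.17 (adjusted p = 0.00046) with both P30 libraries lowest. Erg, Sox17 and Sox18 did not pass in any interval, with P30 against E18 differences of -0.13 ± 0.21, -0.06 ± 0.26 and -0.17 ± 0.28. Cldn5 read 134 and 105 TPM at E18 and 82.7 and 46.9 at P30 (-0.92 ± 0.29, adjusted p = 0.021), and Cdh5 fell by 0.86 (adjusted p = 0.014). Tie1 fell by 0.52 (adjusted p = 0.039), a call lost without some libraries as given below. The following did not pass: Pecam1 read 19.2 and 26.8 TPM at E18 and 17.7 and 20.4 at P30, Tek 10.6 and 12.9 and 11.9 and 10.9, and Esam, Emcn, Eng, Ramp2, Vwf and Nos3 had differences between -0.36 and 0.08.

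Acta2, Myh11 and Tagln rose from low levels. Myh11 reached 1 TPM only at P10 and P30 and was tested only because of these ages, which limits what its p shows. Acta2 read 5.45 and 4.82 TPM at E18, 5.60 and 16.2 at P10 and 13.7 and 22.5 at P30 (difference 1.60 ± 0.42, adjusted p = 0.0096). Myh11 read 0.474 and 0.319, 1.06 and 2.93 and 2.94 and 6.21 TPM (difference 1.93 ± 0.35, adjusted p = 0.0011), and Tagln 2.82 and 4.80, 5.18 and 6.25 and 8.28 and 11.8 (difference 1.21 ± 0.26, adjusted p = 0.0033). In all 3 genes replicate 2 was above replicate 1 at P10 and P30, while choroid plexus markers were higher in replicate 2 at P10 and in replicate 1 at P30 (1335 against 349.7 TPM). The pericyte gene Rgs5 peaked at P10, with 85.7 and 79.2 TPM at P1, 179 and 144 at P10 and 93.4 and 88.5 at P30: it rose by 0.95 ± 0.16 from P1 to P10 (adjusted p = 0.0019) and fell by 0.81 to P30 (adjusted p = 0.0048). Pdgfrb did not pass in any interval (0.28 ± 0.20 from E18 to P30, adjusted p = 0.25).

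Lyve1 and Mrc1 fell, and Stab1 did not pass. Lyve1 read 4.07 and 5.08 TPM at E18, 8.94 and 10.2 at P1, 2.39 and 2.22 at P10 and 0.758 and 1.12 at P30, a fall of 1.67 from P1 to P10 on the log2 scale (adjusted p = 0.00035). Mrc1 read 9.69 and 17.7, 11.3 and 16.5, 10.4 and 11.7 and 3.98 and 5.23 TPM (-1.34 ± 0.28 from E18 to P30, adjusted p = 0.0029). The perivascular macrophage markers that are not members summed to 36.2 and 43.0 TPM at E18 and to 8.24 and 8.21 at P30, while neuronal markers went from 417 and 533 to 5018 and 4800 TPM. What these shifts in cell make-up contribute to the differences was not tested.

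**Figure D3:**
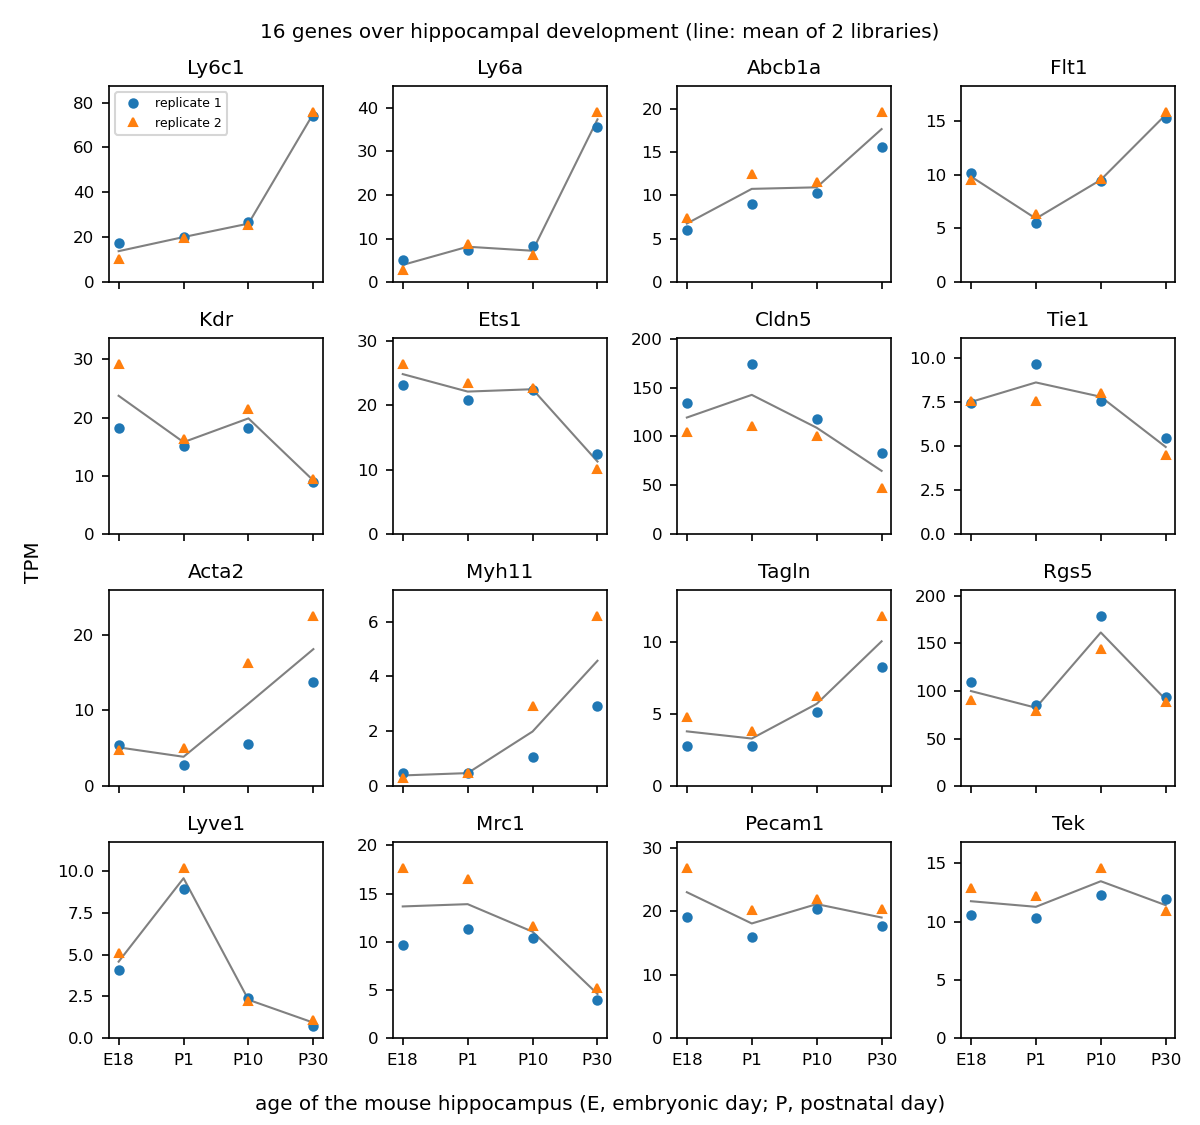
Level in TPM (linear axes from 0) of 16 genes in mouse hippocampus at E18, P1, P10 and P30; circles and triangles are the 2 libraries of each age, which the labels do not pair, and lines join the means. Ly6c1, Ly6a and Flt1 are highest at P30, Kdr and Ets1 lowest at P30, Rgs5 highest at P10 and Lyve1 highest at P1.

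The change was spread unevenly over the intervals. From E18 to P1, 0 of 31 members passed in either direction (limma), where 1.2% of all genes were called higher and 0.524% lower. At an unadjusted p under 0.05 there were 7 members, beside 2341 of all 15444 genes. The lowest adjusted p there were those of Lyve1 (0.92 ± 0.20, adjusted p = 0.053), Flt1 (-0.65 ± 0.16, 0.091) and Ly6a (0.91 ± 0.24, 0.099). Lyve1 was called higher with equal medians (0.94, adjusted p = 0.043), with a pseudocount of 5 TPM (adjusted p = 0.025) and without a variance trend (adjusted p = 0.039). From P1 to P10, Flt1 and Rgs5 rose and Eng, Abcg2 and Lyve1 fell (2 higher and 3 lower of 31, background 17.2% and 18%). From P10 to P30, 4 rose (Flt1, Ly6c1, Ly6a, Abcb1a) and 7 fell (Kdr, Tie1, Ets1, Abcg2, Rgs5, Lyve1, Mrc1), background 17% and 12.5%.

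Of the 15 P30 against E18 calls, 9 held with each of the 8 libraries left out in turn: Ly6a, Ly6c1, Kdr, Ets1, Abcb1a, Myh11, Tagln, Lyve1 and Mrc1. Of these, Myh11 entered the fits only through P10 and P30. The calls of Flt1, Tie1, Cldn5, Cdh5, Abcg2 and Acta2 were lost without at least 1 library, with adjusted p of up to 0.20 for Tie1 without P30 replicate 2. Of 5 calls from P1 to P10, those of Rgs5 and Lyve1 held, and of 11 from P10 to P30, those of Ly6a, Ly6c1 and Ets1. Left out singly, P1 replicate 1 and P10 replicate 2 lowered the P1 to P10 rises to 1, P10 replicate 2 lowered the falls to 1, P10 replicate 1 and P30 replicate 2 lowered the P10 to P30 rises to 2, and P10 replicate 1, P10 replicate 2 and P30 replicate 1 lowered its falls to 2, 2 and 3. E18 replicate 1 lowered the P30 against E18 falls to 5.

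**Figure D4:**
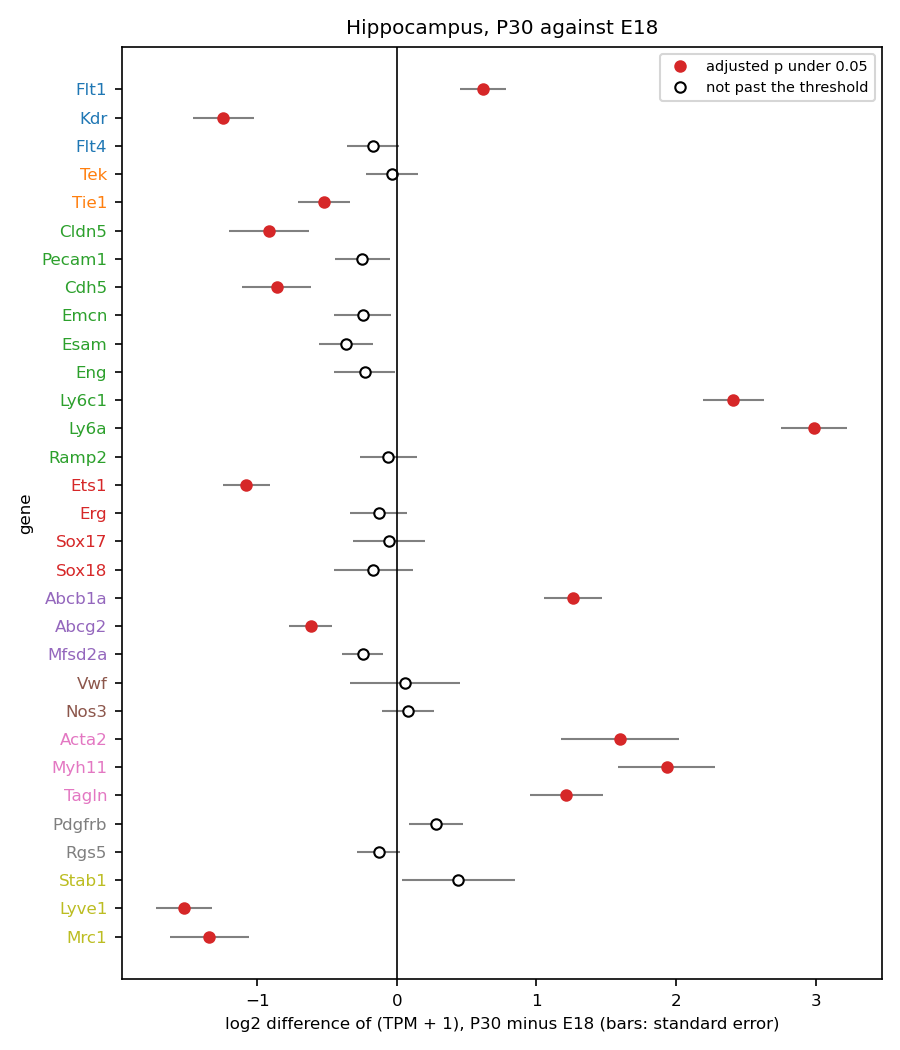
Log2 difference of (TPM + 1), P30 minus E18, for the 31 tested genes (rows), with standard errors as bars; filled points passed an adjusted p of 0.05 in limma and open points did not. The 15 filled points split into 7 right of 0, led by Ly6a at 2.99, and 8 left of 0, down to -1.52 for Lyve1.

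In the wider vessel list 19 of 72 tested genes were higher and 29 lower at P30 than at E18, beside 29.5% and 26.8% of all genes. Slco1a4 (4.84 ± 0.16), Car4, a carbonic anhydrase of brain capillaries (3.28 ± 0.16), and S1pr1, a lipid receptor of endothelium and astrocytes (2.14 ± 0.16), rose with the smallest p. Aplnr, the apelin receptor of sprouting endothelium (-3.17 ± 0.24), and the VEGF co-receptors Nrp2 (-2.0 ± 0.17) and Nrp1 (-2.10 ± 0.18), which neurons also use, fell with the smallest p. From E18 to P1, Car4 and Slco1a4 already rose (1.38 ± 0.16 and 1.18 ± 0.16) and Apln and Vegfa, the main VEGF ligand, fell (-1.19 ± 0.20 and -0.90 ± 0.16). From P1 to P10, 12 rose and 16 fell, beside 17.2% and 18% of all genes. From P10 to P30, 9 rose and 13 fell, beside 17% and 12.5%.

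The fifth comparison concerned cultured rat neurons, which are grown without a circulation. Most measured vessel genes were lower in the cultures than in CA1 tissue. Of 30 members, 16 stayed under 1 TPM in all 4 culture libraries and 3, the transcription factors Erg, Sox17 and Sox18, were listed at 0 in all 4. Per culture library, between 13007 and 13217 of all 22409 rat genes reached 1 TPM. For 26 members, all but Myh11, Tagln, Stab1 and Mrc1, every culture library was below both CA1 libraries. The shares of all genes that meet these conditions are not given here, so the counts only describe the members. At least 2-fold lower in both control cultures than in both CA1 libraries were 18 of 29 measured members, with 0 higher (background 5.93% lower and 1.99% higher of 14591 genes). With a pseudocount of 5 TPM 11 were lower. Genes entered the 2-fold count at 1 TPM or more in any of the 4 libraries. Many of the lower members, such as Cldn5, Pecam1 and Tek, were under 1 TPM in both control cultures. They entered only through CA1, where they were high, which limits what the count shows. The member median was -2.32 against 0.03 for all genes. CA1 tissue and cultures differ in age, preparation and cell make-up together, which cannot be told apart, and no test was made.

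Cldn5 was listed at 0, 0, 0 and 0.237 TPM in the 4 cultures, against 210 in CA1 neuropil and 89.4 in somata. Pecam1 was between 0.0644 and 0.132 TPM in the cultures against 29.3 and 12.7, Tek between 0.0847 and 0.217 against 26.0 and 10.6, and Abcb1a between 0.201 and 0.941 against 38.9 and 16.7. Rgs5 was between 0.939 and 2.88 TPM against 156 and 80.6.

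The 7 members at 1 TPM or more in all 4 cultures were Ets1, Abcg2, Mfsd2a, Myh11, Tagln, Pdgfrb and Ramp2. Tagln read 14.3 and 23.9 TPM in control and 21.9 and 32.9 in bicuculline cultures, above CA1 somata (5.58) and below neuropil (38.3). Ramp2 read 28.1 and 20.1 and 18.0 and 22.7 TPM, Mfsd2a 8.69 and 12.3 and 7.20 and 16.8, and Ets1 5.34 and 5.44 and 5.54 and 5.93. None of these 7 is found only in vessels. Astrocyte markers summed to 6007 to 9798 TPM in the cultures against 4019 in neuropil and 1787 in somata, and blood markers to at most 0.428 TPM against 1910 and 1005.

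**Figure D5:**
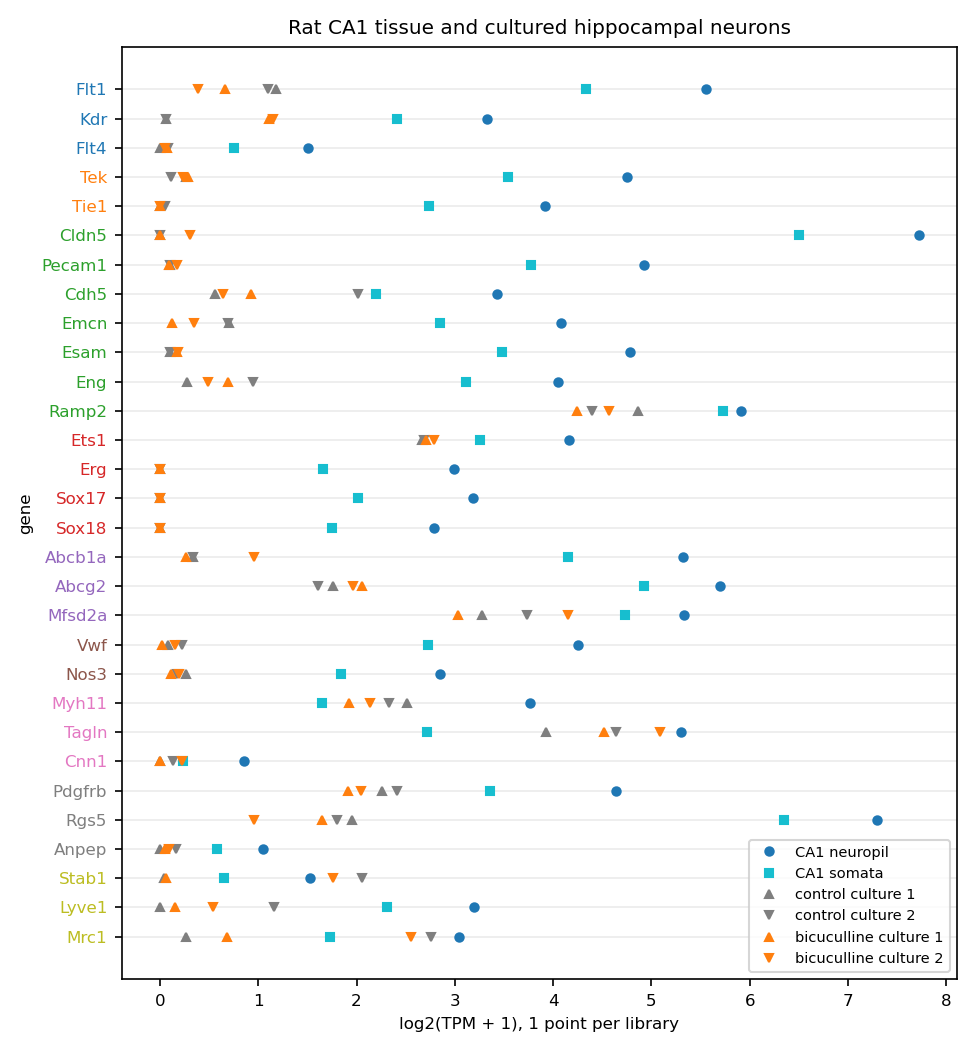
Level as log2(TPM + 1) of 30 genes (rows) in rat CA1 neuropil and somata and in 2 control and 2 bicuculline cultures, 1 point per library. Culture points cluster near 0 for most endothelial genes, while Tagln reaches 32.9 TPM and Ramp2 28.1 TPM.

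The final comparison asked whether bicuculline, which raises network activity, alters these genes. Only 12 members reached 1 TPM in 2 culture libraries. In limma 0 of them were called in either direction, where 2.06% of all 13341 tested genes were called higher and 0.51% lower. At an unadjusted p under 0.05 there was 1 member, beside 2636 of the 13341 genes. That member was Kdr, at 0.0438 and 0.0434 TPM in control and 1.15 and 1.22 in bicuculline cultures, and Flt1 read 1.26 and 1.14 and 0.581 and 0.310 TPM. Each of the pair reached 1 TPM only in the group where it was high and so was tested only because of that group, and nothing is read from its difference. Mrc1 read 0.203 and 5.76 TPM in control and 0.603 and 4.89 in bicuculline cultures, so that both libraries numbered 2 were above both numbered 1. Microglial and macrophage markers followed the number too, at 0.148 and 41.9 TPM in control and 0.884 and 39.3 in bicuculline cultures. Over all tested genes same-numbered cultures deviated together (r = 0.588). The labels state no pairing, so the fit left the number out, and counts with it as a block are given below. Of 49 tested genes of the wider list, 1 rose, Slco1c1 (1.15 ± 0.13, adjusted p = 0.021).

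Circular RNAs, formed when a downstream splice site joins an upstream one, were rare from these hosts. In mouse 12 of 28482 circRNAs came from 6 of the genes (Pecam1, Mrc1, Tek, Flt1, Abcg2, Ets1), and in rat 3 of 18075 from Emcn, Erg and Flt1. The deposited circRNA values are RPM, reads scaled to library size, and whole reads were recovered from them. The rRNA-depleted mouse libraries carried between 1231 and 43523 circRNA reads each, of which at most 10 fell to these hosts. The best covered was that of Mrc1 on chromosome 2 at 14210614 to 14216571 (mm9), with 31 reads in 16 of 28 libraries. Its reads were 9, 1 and 3 in liver, 2, 0 and 2 in heart, 0, 2 and 0 in lung, 0, 0 and 1 in brain and 0, 2 and 1 in testis.

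The others with the most reads per host were those of Pecam1 at 106540863 to 106546562 on chromosome 11 (9 reads in 4 libraries), Ets1 at 32536260 to 32541773 and at 32540534 to 32545944 on chromosome 9 (6 reads each in 5), Flt1 at 148511358 to 148511993 on chromosome 5 (4 in 4), Abcg2 at 58622004 to 58635815 on chromosome 6 (4 in 4) and Tek at 94493947 to 94504095 on chromosome 4 (2 in 2), all mm9. In rat (rn5) they were those of Flt1 at 11182244 to 11182925 on chromosome 12 (5 reads in 3 libraries), Emcn at 261214716 to 261228942 on chromosome 2 (2 in 1) and Erg at 39281327 to 39281544 on chromosome 11 (1 in 1). These counts are too low for a fold to be read from them.

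Only 3 member circRNAs entered the tissue fit, 3 the age fit and 0 the culture fit, and limma called 0 of them (0 also at an unadjusted p under 0.05, and 0 with edgeR). In the same fits 47.7% of 5594 circRNAs were higher and 2.82% lower in brain, 1.11% higher and 3.29% lower in lung, and of 14200 circRNAs 6.27% were higher and 1.44% lower at P30 than at E18. Over all circRNAs, limma called 2827 in brain, 246 in lung and 1095 at P30 against E18 in either direction, where edgeR on the recovered reads called 1589, 30 and 5. The Mrc1 circRNA had log2 differences of -0.62 ± 0.55 in brain, -0.35 ± 0.55 in lung and -0.49 ± 0.49 at P30 against E18. A difference in circRNAs of these hosts was not detectable at this depth.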

How the data were processed

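The authors deposited gene values as TPM and circRNA values as RPM for 34 of 35 samples (28 mouse and 6 rat libraries). Per the submitters' processing notes, Cufflinks 2.2.1, TopHat2 2.0.6 and CASAVA 1.8.2 were used, and the notes name the builds mm9 and rn5. Which program called circRNAs is not given in these sources. A long-read P30 sample was not analysed here. Groups follow the labels. The members and the lists of vessel genes and cell markers were chosen with earlier results of these data known.

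TPM were analysed as log2(TPM + 1), which understates changes of low genes. Genes at 1 TPM or more in at least 3 tissue libraries, or in 2 libraries of the ages or cultures, were tested with limma 3.58.1 (moderated statistics with a trend, R 4.3.3) and Benjamini-Hochberg adjustment over all genes, threshold 0.05. The fit was tested on simulated data. Each tissue was set against the mean of the other 4. Groups of 1 library got folds without a test, called past 2-fold on TPM + 1. CircRNA values were tested in limma as log2(RPM + the median value of 1 read). Whole circRNA reads were recovered from the deposited RPM, where 100% of values above 0 lay within 0.1 of a whole number of reads, and tested with edgeR 4.0.16 as an alternative.

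All 33 members are named. Full statistics go to at most 4 per role and comparison, those with the largest changes past the threshold or otherwise the smallest p, and other vessel genes are named by smallest p, up to 3 per direction. Alternatives were other pseudocounts, no filter, equal medians, an age term, 20-week libraries alone, no variance trend, a replicate block, other folds and leaving out each library. TPM keep no depth, so the precision of gene values is unknown beyond the spread between libraries.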

Additional observations from a re-analysis of the deposited data

How the results depend on the processing

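Low genes set the limits: with a pseudocount of 5 TPM, heart had 2 members lower, P1 against E18 had 1 higher, the synaptosome library had 0 higher and 8 lower, rat neuropil had 8 higher, and 11 were lower in cultures than in CA1. Scaling to equal medians gave 2 lower in lung, 8 higher in liver, 1 higher in testis, 1 higher at P1 against E18 and 3 higher in the synaptosome library, and turned Flt1 (-0.039) and Ramp2 (-0.40) in brain, Kdr (0.59) and Ets1 (0.093) in liver, Acta2 (0.40), Myh11 (0.28), Cnn1 (0.30) and Mrc1 (0.067) in testis, and Vwf at P30 against E18 (-0.032). Without a variance trend, P1 against E18 had 1 higher and bicuculline 1 higher. A fold of 1.5 gave 3 higher in the synaptosome library, and a fold of 3 gave 0 higher and 10 lower there, 8 higher in mouse neuropil and 2 in rat neuropil. Bicuculline moved Mrc1 by -0.0078 with a pseudocount of 5 TPM. The Ets1 circRNA at 32540534 was at 0.93 in lung with edgeR. The cause of these shifts was not tested.

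The replicate numbers are not stated to mark shared animals or batches, and same-numbered libraries deviated together unevenly, with r from 0.0159 to 0.0982 between tissues, from 0.0555 to 0.351 between ages and 0.588 between the 2 pairs of cultures. With the number as a replicate block, P1 against E18 had 2 higher, P10 against P1 had 5 and P30 against P10 had 7. Bicuculline had 2 higher, Kdr and Tagln. Kdr was tested only because of the group where it was high, so nothing is read from its call. The culture block rests on 2 pairs that the labels do not state. Shares of all genes with the block are not given here, so nothing is concluded from these counts. The 20-week libraries alone gave 3 lower in heart and 1 higher in testis, with the replicate block and without it.

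Leaving out 1 library at a time, members higher ranged from 23 to 27 in heart, from 2 to 5 in liver, from 1 to 3 at P10 against P1, from 2 to 4 at P30 against P10 and from 5 to 7 at P30 against E18. Members lower ranged from 1 to 2 in heart, from 19 to 20 in brain, from 26 to 27 in testis, from 1 to 3 at P10 against P1, from 2 to 8 at P30 against P10 and from 5 to 8 at P30 against E18. Uncalled differences that turned sign ranged, for P1 against E18, from -0.54 to 0.70 for Vwf, from -0.12 to 0.22 for Pdgfrb, from -0.19 to 0.078 for Tek, from -0.44 to 0.16 for Tagln and from -0.38 to 0.91 for Stab1. They ranged from -0.28 to 0.041 for Tie1 at P10 against P1, and at P30 against E18 from -0.34 to 0.45 for Vwf, from -0.26 to 0.0026 for Rgs5 and from -0.020 to 0.18 for Nos3. With bicuculline they ranged from -1.14 to 1.05 for Mrc1, from -1.15 to 0.71 for Stab1, from -0.47 to 0.65 for Mfsd2a and from -0.46 to 0.0054 for Ramp2. The Ets1 circRNA at 32540534 ranged from -0.42 to 0.083 in brain and from -0.41 to 0.10 in lung, and that of Mrc1 from -1.01 to 0.033 at P30 against E18.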

Other observations

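Poly(A) selection and rRNA depletion gave different levels for several of these genes in the 14-week brain, with 1 library on each side and no replicate check. Anpep read 10.6 TPM in the poly(A) library and 1.40 in the depleted one, Stab1 21.0 and 6.12, Eng 24.3 and 8.48, and Vwf 29.4 and 11.6. Emcn went the other way, at 6.77 against 13.9 TPM, and so did Rgs5 at 41.3 against 78.6 and Sox17 at 5.19 against 10.5. Ly6c1 (79.2 and 76.6) and Tagln (11.5 and 10.7) were close. The libraries may come from different animals, which the labels do not state.

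The scavenger receptor Stab1 also separated the 2 control cultures, at 0.0326 TPM in replicate 1 and 3.17 in replicate 2, as it did the bicuculline cultures, at 0.0415 and 2.40.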
